A study of Mus musculus with 4 samples.

Results

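Of the 942 mature miRNAs in the deposited read table, 8 are miRNAs of microglia, of blood-borne immune cells and of the inflammatory response: miR-146a-5p, miR-146b-5p, miR-155-5p, miR-21a-5p, miR-142-5p, miR-142-3p, miR-150-5p and miR-223-3p. They were chosen by name for this role and not by a rule on their values, but with earlier results of these data known. Every name was found in the table. Small RNA was sequenced from the brain cortex of 4 mice of strain B6C3, all kept to the age of 9 months. Of these, 2 were wild-type (WT1 and WT2) and 2 carried the APPswe and PS1deltaE9 transgenes (APP3 and APP4, called AD mice), which lead to amyloid β deposits. WT1 and APP4 were siblings (group 1), and so were WT2 and APP3 (group 2). With 1 WT and 1 AD mouse in a pair, differences within a pair have no replicate check. Both transgenes are directed to neurons, and the sex of the mice is not given in the sources used here. The labels name no treatment other than pentobarbital anesthesia before dissection. The cortex was sequenced as a whole, so fewer cells of a type and less of a miRNA per cell cannot be told apart in any value below.

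MiRNAs guide the silencing complex to messenger RNAs, and bases 2 to 8 of the mature strand, the seed, make most of the contact with the target. MiR-146a, miR-155 and miR-21 are induced by toll-like receptor and NF-κB signalling. MiR-146a damps that signalling by targeting the adaptors Irak1 and Traf6, whereas miR-155 prolongs it by targeting inhibitors such as Socs1 and Inpp5d. MiR-142 is made in almost all cells of the blood lineage, microglia included, miR-223 in neutrophils and other myeloid cells, and miR-150 in mature lymphocytes.

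The mature sequences are shown because the results below turn on reads of near-identical strands (miR-146) and of both arms of one hairpin (miR-142). Each is printed 5′ to 3′ with the seed in capitals.
miR-146a-5p: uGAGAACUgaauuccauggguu
miR-146b-5p: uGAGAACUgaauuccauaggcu
miR-155-5p: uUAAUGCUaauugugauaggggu
miR-21a-5p: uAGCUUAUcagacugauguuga
miR-223-3p: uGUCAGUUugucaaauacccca
miR-142-5p: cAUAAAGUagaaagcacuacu
miR-142-3p: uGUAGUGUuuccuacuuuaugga
The sequences are those of RefSeq on GRCm38.p6, which matched 7 of the 8 miRNAs by name and 756 of the 942 in the table. MiR-146a-5p and miR-146b-5p share their seed and 20 of 22 bases. They differ by G18A and U21C, with positions counted from the 5′ end and the base of miR-146a-5p given first. None of the other seeds recurred among the matched miRNAs of the table. The methods name up to 2 mismatches and 2 changed bases at each end for the counting, but no mismatch for the match to miRBase. Under the former, reads could have been exchanged between miR-146a-5p and miR-146b-5p, and which holds for the deposited counts is not given in the sources used here.

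The hairpin of miR-142 holds both of its mature arms, which are printed here in capitals, the 5p arm first.
Mir142: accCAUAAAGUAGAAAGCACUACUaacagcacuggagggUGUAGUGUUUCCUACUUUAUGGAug
It lies on the plus strand at chr11:87756864-87756927 (GRCm38), in an intron of the long non-coding RNA Mir142hg and opposite the hairpin Mir142b. Mir146 (chr11:43374397-43374461, minus strand) and Mir150 (chr7:45121757-45121821, plus strand) overlap no other annotated gene. Mir146b lies in an intron of Mfsd13a (chr19:46342762-46342870, plus strand). The hairpins of the other miRNAs lie in exons: Mir155 in the long non-coding RNA Mir155hg (chr16:84714140-84714204, plus strand), Mir21a in the untranslated end of Vmp1 (chr11:86584067-86584158, minus strand) and Mir223 in the non-coding RNA F630028O10Rik (chrX:96242817-96242926, plus strand).

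Between 19048747 (APP4) and 26085776 (WT1) miRNA reads were counted per library, and levels are given as reads per 1000000 of these (RPM). At these depths 3 reads, the least taken here as a detectable level, correspond to between 0.115 and 0.157 RPM, and intervals and standard errors (SE) of reads cover counting error only. Replicates were separate mice, and no 2 libraries of a genotype agreed within sampling noise. The library of APP4 stood apart in the epithelial miR-200 and miR-183 clusters, whose 8 miRNAs summed to 5862 RPM there against 576 to 1024 RPM in the other libraries, and all 8 were called higher in APP4 than in WT1, while 4 of them were called lower in APP3 than in WT2. TMM, which corrects library sizes for unequal composition, shifted the log2 values of group 1 by -0.25 and those of group 2 by -0.02. Its factor was highest for APP4 (1.10) and lowest for WT1 (0.920). Values of APP4 against WT1 are therefore given on both scales where the scales differ in direction or call. The part of these clusters in the shift by TMM and in the values of the immune miRNAs was not tested.

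Within each library the order of the 8 miRNAs was the same, from miR-146b-5p, which ranked between 36 and 50 among all miRNAs, through miR-21a-5p, miR-146a-5p, miR-150-5p, miR-142-5p, miR-223-3p and miR-155-5p to miR-142-3p, which ranked between 459 and 520. Among neighbours in this order, the ranges over the 4 libraries overlapped for miR-223-3p and miR-155-5p only. Together the 8 took 0.787% (WT1) and 0.707% (WT2) of the miRNA reads of the WT mice and 0.578% (APP3) and 0.708% (APP4) of those of the AD mice. MiR-155-5p, miR-223-3p and miR-142-3p reached only a few RPM, so that their values rest on 32 to 130 reads per library.

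**Figure D1:**
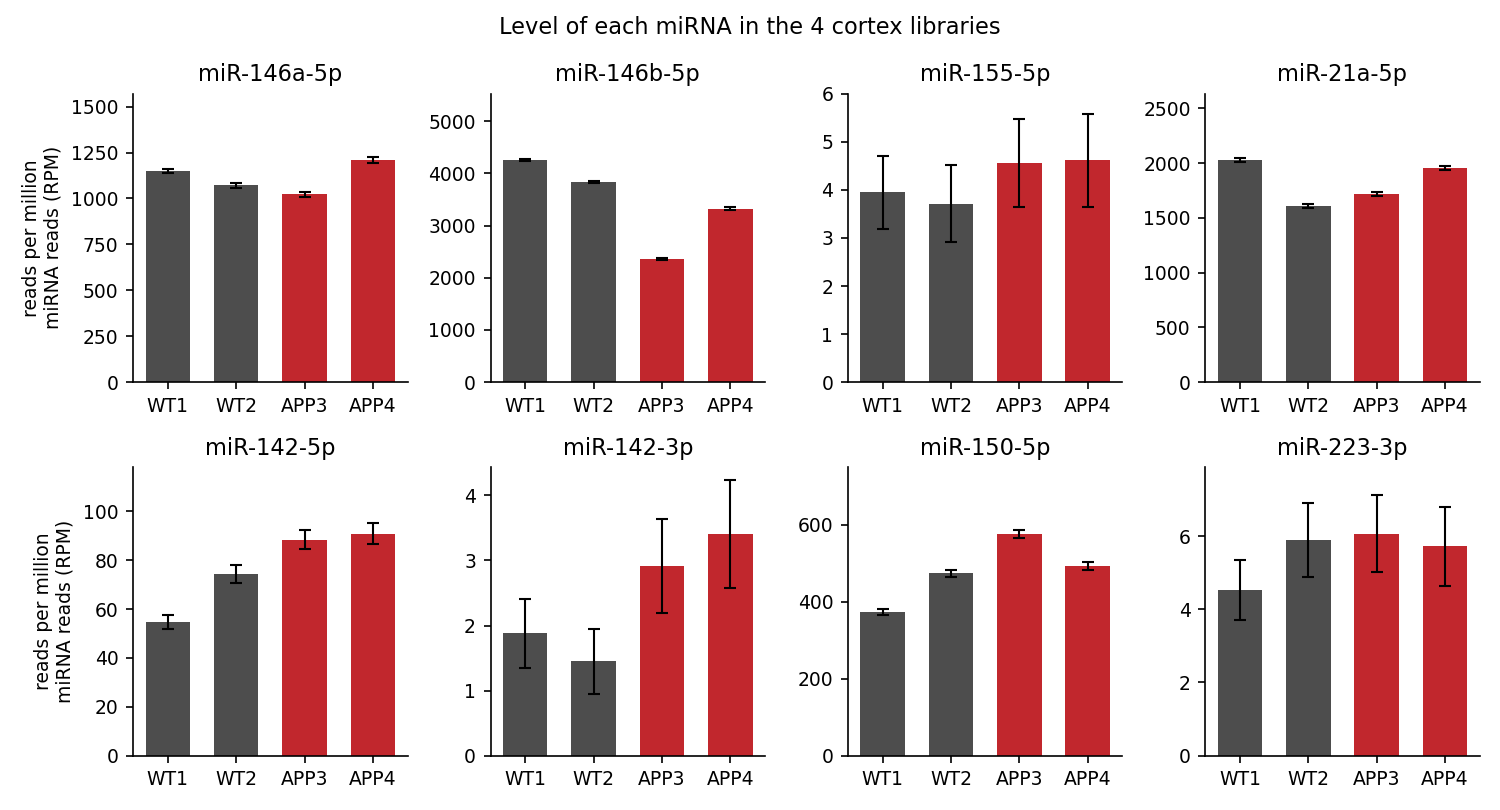
Level of each of the 8 miRNAs in the 4 cortex libraries (y axis, RPM, linear from 0; grey bars WT, red bars AD; black bars, 95% interval of the counting error). MiR-146b-5p was lower in both AD mice than in both WT mice, miR-142-5p, miR-142-3p, miR-150-5p and miR-155-5p were higher on this scale, and the intervals of the miRNAs at a few RPM are wide.

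MiR-146b-5p, the more abundant of the miR-146 strands, was lower in both AD mice than in both WT mice. WT1 had 4253 RPM and WT2 3832, whereas APP3 had 2365 RPM and APP4 3326. The WT mean was 4043 ± 298 RPM and the AD mean 2846 ± 679 (SD, n = 2 each), and the genotypes did not overlap, also with TMM library sizes. Across all miRNAs tested, 8.99% had both AD mice below both WT mice on RPM, and 19.1% with TMM. Within sibling pairs, Fisher's exact test (two-sided) was run on the reads, and a call required both a false discovery rate (FDR) under 0.05 and a change of 1.5-fold or more. Such a call concerns 2 libraries and not the genotypes. MiR-146b-5p was called lower in APP3 than in WT2, with a log2 fold change of -0.70 (SE 0.01). In group 1 the change was -0.35 (SE 0.01), which is under 1.5-fold, and -0.61 with TMM, where it was called. The paper lists miR-146b-5p as changed in group 2 only. Among miRNAs changed in 1 group, it reports a like trend by qRT-PCR in more mice for miR-183-5p and miR-342-3p only. The fold change of miR-146b-5p was at the 8.73 percentile in group 1 and the 4.37 percentile in group 2 of the 252 miRNAs whose mean reached 50 RPM. The AD mice also differed from each other, with miR-146b-5p higher in APP4 than in APP3 by 0.49 on the log2 scale (not called), a gap larger than that between the WT mice (-0.15, WT2 against WT1). Its passenger strand, miR-146b-3p, had 17 (WT1), 16 (WT2), 10 (APP3) and 27 reads (APP4), and the genotypes overlapped. It was called higher in group 1 (1.11, SE 0.44, not called with TMM), and in group 2 its value was -0.60 (SE 0.57) with no call.

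MiR-146a-5p, which carries the same seed and is the strand best known as an NF-κB target, did not separate the genotypes. The WT mice had 1149 RPM (WT1) and 1071 RPM (WT2), and the AD mice 1023 RPM (APP3) and 1209 RPM (APP4). The AD mice held both the highest and the lowest value, with means of 1110 ± 55.5 RPM in WT and 1116 ± 131 in AD mice (SD, n = 2 each). The log2 change was 0.07 in group 1 (SE 0.01), or -0.18 with TMM, and -0.07 (SE 0.01) in group 2, and neither was called. Its coefficient of variation over the 4 libraries was 7.40%, against a median of 14.0% over those 252 miRNAs and 23.6% for miR-146b-5p.

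The balance within miR-146 does not depend on how the libraries were scaled. MiR-146b-5p made up 78.7% of the reads of both strands in WT1 (95% Wilson interval 78.5 to 78.9) and 78.2% in WT2 (77.9 to 78.4). It made up 69.8% in APP3 (69.5 to 70.1) and 73.3% in APP4 (73.1 to 73.6). The share was thus 78.4 ± 0.40% in WT and 71.6 ± 2.5% in AD mice (SD, n = 2 each), an AD minus WT difference of -6.86 percentage points, and no interval of one genotype reached that of the other. With 2 mice of each genotype the smallest two-sided p of an exact permutation test is 0.333, so that test cannot reach 0.05 for the share. The sum of both strands was 5403 and 4903 RPM in the WT mice and 3388 and 4535 RPM in APP3 and APP4. Taken as one, they were not called in either pair, with log2 fold changes of -0.25 in group 1 and -0.53 in group 2.

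**Figure D2:**
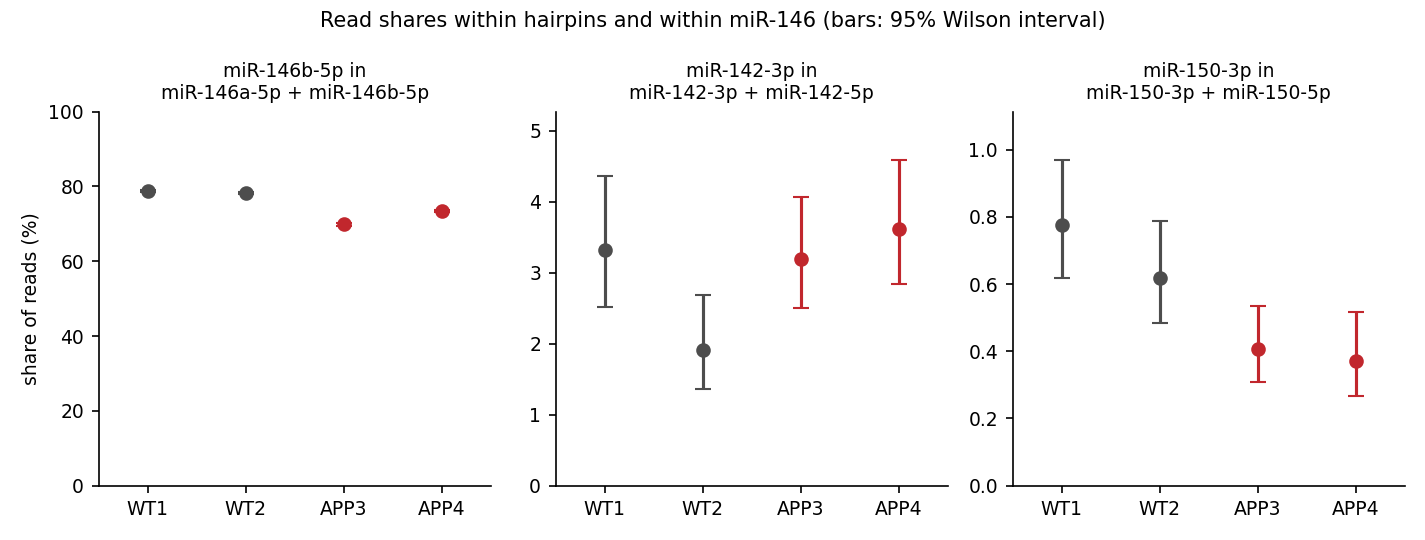
Share of reads (y axis, percent, from 0) of miR-146b-5p in both miR-146 strands, of miR-142-3p in both miR-142 arms and of miR-150-3p in both miR-150 arms, for each library (grey WT, red AD; bars, 95% Wilson interval). The miR-146b-5p share lies at 78.2% or above in the WT mice and at 73.3% or below in the AD mice, while for miR-142-3p WT2 alone stands low.

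MiR-155-5p, the pro-inflammatory partner of miR-146a, was near the limit of what these libraries could resolve. The WT mice had 103 (WT1) and 82 reads (WT2), and the AD mice 97 (APP3) and 88 reads (APP4), which is 3.95, 3.71, 4.56 and 4.62 RPM in this order. Both AD mice lay above both WT mice on this scale, but with TMM they overlapped. Against the WT sibling its log2 change was 0.23 in group 1 (SE 0.21, FDR 0.494 by Fisher's exact test), or -0.03 with TMM, and 0.30 (SE 0.22, FDR 0.356) in group 2. A difference of this size was not detectable at this depth. Its other arm, miR-155-3p, had 2 reads in WT1 and 0 in the other libraries, which, with 3 reads as the limit that a count of 0 allows, leaves a share of up to 3.66% of the miR-155 reads of WT2, 3.09% of APP3 and 3.41% of APP4.

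MiR-21a-5p, which is raised in many inflamed and growing tissues, had no difference between the genotypes that exceeded that within them. WT1 was highest with 2027 RPM and WT2 lowest with 1610, and both AD mice lay between them, APP3 with 1716 RPM and APP4 with 1952. APP4 differed from WT1 by -0.05 on the log2 scale (SE 0.01), or -0.31 with TMM, and APP3 from WT2 by 0.09 (SE 0.01). The gap between the WT mice, -0.33 for WT2 against WT1, was larger than either value on RPM. The passenger strand miR-21a-3p was 0.542% and 0.762% of the miR-21a reads in WT1 and WT2, and 0.885% and 0.548% in APP3 and APP4, with overlap between the genotypes.

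Both arms of miR-142, the miRNA of blood-lineage cells that microglia share, were higher in both AD mice than in both WT mice on RPM and with TMM. MiR-142-5p, the major arm here, had 54.7 RPM in WT1 from 1426 reads and 74.3 RPM in WT2 from 1640 reads, while APP3 had 88.4 RPM from 1880 reads and APP4 90.9 RPM from 1731 reads. The means were 64.5 ± 13.9 RPM in WT and 89.6 ± 1.75 in AD mice (SD, n = 2 each). The AD mice were close to each other, with a log2 difference of 0.04 for APP4 against APP3 (FDR 0.651 by Fisher's exact test), or -0.09 with TMM, and the WT mice were not, with WT2 above WT1 by 0.44 (SE 0.05). MiR-142-5p was called higher in APP4 than in WT1, by 0.73 (SE 0.05). In group 2 the log2 fold change was 0.25 (SE 0.05), which was under 1.5-fold and not called, and with TMM the value of group 1 was 0.48 and not called either. The size of the difference thus turned on which WT mouse was used. Against WT1 it was called in both AD mice (0.69 for APP3), and against WT2 in neither (0.29 for APP4). The paper lists miR-142-5p as changed in group 1 only, and not among those for which its qRT-PCR in more mice had a like trend.

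MiR-142-3p was called higher in the AD mouse of both sibling pairs, from few reads. There were 49 (WT1) and 32 reads (WT2) in the WT mice and 62 (APP3) and 65 reads (APP4) in the AD mice, or 1.88, 1.45, 2.92 and 3.41 RPM in this order. In group 1 the log2 fold change was 0.86 (SE 0.27, FDR 0.00500 by Fisher's exact test), and it was 0.997 (SE 0.31, FDR 0.00457) in group 2, where it was above 99.6% of the 252 more abundant miRNAs. With TMM it was 0.60 (FDR 0.0818) in group 1, which is no longer called, and 0.98 (FDR 0.00467) in group 2. Between mice of unlike genotype that are no siblings, it was 1.22 for APP4 against WT2, called, and 0.63 for APP3 against WT1 (FDR 0.0565), not called.

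The share of the minor arm was lowest in WT2, where it rests on 32 reads. Of the miR-142 reads of WT1, miR-142-3p made up 3.32% (95% Wilson interval 2.52 to 4.36), and of those of WT2 1.91% (1.36 to 2.69). The share was 3.19% (2.5 to 4.07) for APP3 and 3.62% (2.85 to 4.59) for APP4. WT1 fell within the range of the AD mice, and the intervals of WT1 and WT2 overlapped. For WT2 against WT1 the 5p arm was at 0.44 and the 3p arm at -0.37 (SE 0.33, FDR 0.448). The summed arms followed miR-142-5p, at 56.5, 75.7, 91.3 and 94.3 RPM in WT1, WT2, APP3 and APP4, and were called in group 1 (0.74, under 1.5-fold with TMM at 0.48) and not in group 2 (0.27).

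MiR-150-5p, the miRNA of mature lymphocytes, was higher in both AD mice than in both WT mice on RPM and overlapped with TMM. WT1 had 373 RPM and WT2 474, APP3 had 577 RPM and APP4 492, and the gap between WT2 and APP4 was small. The means were 423 ± 71.0 RPM in WT and 534 ± 59.8 in AD mice (SD, n = 2 each). In group 1 the log2 fold change was 0.40 (SE 0.02), or 0.15 with TMM, and 0.28 (SE 0.02) in group 2. The WT mice differed by 0.34, and none of these was called. The other arm of the hairpin went the other way. MiR-150-3p had 76, 65, 50 and 35 reads in WT1, WT2, APP3 and APP4, and both AD mice lay below both WT mice on both scales, with no call in either pair on RPM and a call in group 1 with TMM (-0.91). Its share of the miR-150 reads was 0.774% for WT1 (95% Wilson interval 0.619 to 0.968) and 0.618% for WT2 (0.485 to 0.786), and 0.406% for APP3 (0.308 to 0.535) and 0.372% for APP4 (0.268 to 0.517). The intervals of WT2 and both AD mice overlapped, so the gap between the genotypes rests on few reads.

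MiR-223-3p, the miRNA of neutrophils and other myeloid cells, was as scarce as miR-155-5p. WT1 had 118 reads (4.52 RPM) and WT2 130 (5.89 RPM), APP3 had 129 reads (6.07 RPM) and APP4 109 (5.72 RPM). WT1 was the low library, and WT2 lay between the AD mice. APP4 exceeded WT1 by 0.34 on the log2 scale (SE 0.19, FDR 0.166 by Fisher's exact test), and the value was 0.04 (SE 0.18, FDR 0.966) in group 2, and between the WT mice it was 0.38. The passenger strand miR-223-5p had 3 and 0 reads in WT1 and WT2 and 6 and 3 in APP3 and APP4. Both AD mice lay above both WT mice on both scales, but APP4 and WT1 had equal reads, at the detection limit. Their order thus reflects library size only. It was called higher in APP3 than in WT2 (FDR 0.0399 by Fisher's exact test, 0.0416 with TMM), by at least 2.08-fold when the count of 0 is set to 3 reads, and in group 1 both libraries had 3 reads.

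**Figure D3:**
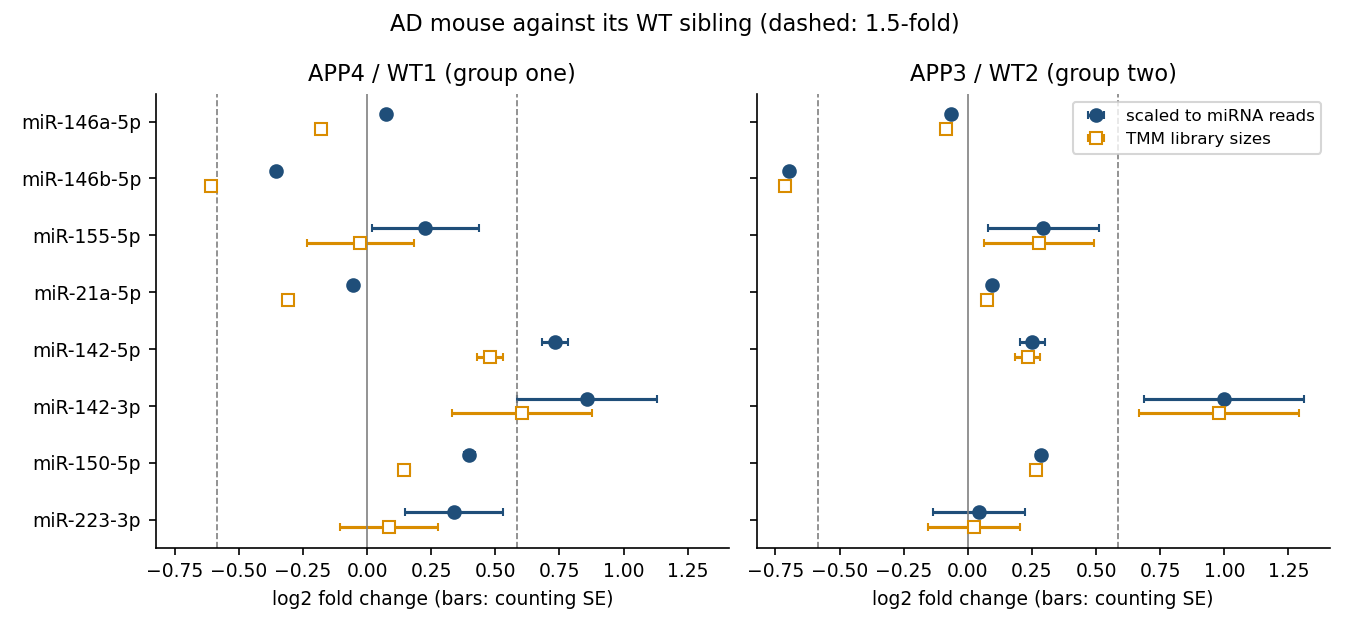
Log2 fold change of each miRNA in the AD mouse against its WT sibling, group 1 at left and group 2 at right (filled circles, scaled to the miRNA reads; open squares, TMM library sizes; bars, counting SE; dashed lines, 1.5-fold). MiR-142-3p lies beyond 1.5-fold in both pairs, miR-146b-5p is the one farthest below 0 in both, and TMM moves all values of group 1 to the left.

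Counted over the 8 miRNAs, 2 were called between APP4 and WT1 (miR-142-5p and miR-142-3p, both higher), where 11.6% of all 899 miRNAs tested were called. Between APP3 and WT2, 2 were called (miR-142-3p higher and miR-146b-5p lower), against 6.81% of all 896. With TMM, 1 was called in group 1, miR-146b-5p lower, against 9.45% of all miRNAs (39 higher and 46 lower, where RPM gave 87 higher and 17 lower), and the same 2 in group 2, against 6.92%. None of the 8 was called between the WT mice (10.1% of all miRNAs were) or between the AD mice (8.05%). Between mice of unlike genotype that are no siblings, miR-142-3p was called for APP4 against WT2 (background 10.6%), and miR-142-5p and miR-150-5p, both higher, and miR-146b-5p, lower, for APP3 against WT1 (11.1%). The comparisons of the AD mice with WT1 share that library, as do those with WT2. The median log2 fold change of the 8 was 0.28 in group 1 and 0.17 in group 2, beside 0.21 and 0.05 over all miRNAs tested. On RPM, 4 of the 8 had both AD mice above both WT mice, against 27% of all miRNAs tested, and with TMM 2 (both miR-142 arms), against 14.9%. With only 8 miRNAs, of which the miR-142 arms come from one hairpin, shares of this kind are coarse.

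Over the 4 mice, with the mouse as the replicate, none of the 8 was called by edgeR's quasi-likelihood test, and neither was any of the 623 miRNAs tested (0%). At an unadjusted p under 0.05, 2 of the 8 passed, miR-146b-5p and miR-142-3p, against 5.78% of all miRNAs (36 of them). DESeq2 also called none, with 28 of 942 miRNAs at an unadjusted p under 0.05. Of the 8, only 1 passed there, miR-146b-5p (unadjusted p 0.00635 by DESeq2), and miR-142-3p did not (0.0915). For miR-146b-5p edgeR gave a log2 fold change of -0.66 (SE 0.21, unadjusted p 0.0153, adjusted p 0.768), and for miR-142-3p 0.77 (SE 0.28, unadjusted p 0.0278, adjusted p 0.768). The values of miR-142-5p (0.35, SE 0.22), miR-150-5p (0.21, SE 0.21) and miR-155-5p (0.12, SE 0.23) were above 0 and those of miR-146a-5p (-0.14, SE 0.18) and miR-21a-5p (-0.13, SE 0.20) below it, with adjusted p between 0.929 and 0.972. MiR-223-3p was at 0.05 (SE 0.23, adjusted p 0.995). Without APP3 none of the 8 had an unadjusted p under 0.05, against 7.68% of the 651 miRNAs then tested.

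The miRNAs whose pattern over the 4 libraries came closest were found by the root mean square distance of centred log2 RPM among 374 miRNAs whose mean reached 10 RPM. MiR-142-5p was nearest to miR-574-3p (distance 0.03, log2) and miR-29c-3p (0.06), for which WT1 was also lowest and both AD mice highest. MiR-150-5p was nearest to miR-191-3p (0.03) and miR-130b-5p (0.03), and miR-146a-5p to miR-181c-5p (0.04) and miR-1981-5p (0.04). MiR-21a-5p was nearest to miR-101a-3p (0.01) and miR-129-5p (0.02). MiR-146b-5p had no miRNA as close, the nearest being miR-145a-5p (0.12) of vascular smooth muscle and miR-221-5p (0.16). With 4 points per miRNA these distances are a description.

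Blood left in the vessels carries red cells and, with them, the white cells that make miR-142, miR-150 and miR-223, so miRNAs of red cells were set beside them. MiR-451a, the most specific of these, had 91.4 RPM in WT1 and 199.9 RPM in WT2, and 158.6 RPM (APP3) and 145.9 RPM (APP4) in the AD mice. Of 5 erythroid miRNAs, 3 were called higher in APP4 than in WT1, namely miR-144-3p by 1.55 (SE 0.21), miR-144-5p by 1.14 (SE 0.13) and miR-451a by 0.67 (SE 0.04). In this pair 11.6% of all miRNAs tested were called, and both miR-144 strands come from the same hairpin. With TMM the values were 1.298, 0.88 and 0.42, and miR-451a was not called. The same 3 were called between the WT mice on both scales, where WT1 was the low one (10.1% of all miRNAs were called there on RPM). Between APP3 and WT2 none was called (6.81% of all miRNAs were), and miR-451a was lower in the AD mouse (-0.33, SE 0.03). WT1 was thus the lowest library for these 3 miRNAs and also for miR-142-5p, miR-150-5p and miR-223-3p. On RPM this was not particular to miRNAs of blood cells. WT1 was also lowest there for the neuronal miR-124-3p, miR-128-3p, miR-137-3p and miR-9-3p, for miR-126-3p and miR-126-5p and for the oligodendrocyte miR-338-3p. It was not lowest for miR-143-3p, miR-145a-5p, miR-219-5p or miR-338-5p. With TMM, WT1 was no longer lowest for miR-124-3p (APP4 against WT1 -0.033), miR-126-5p (-0.24) or miR-126-3p (WT2 against WT1 -0.014). Nor was it for miR-128-3p, at 0.29 for WT2 against WT1 and -0.31 for APP3 against WT2. WT1 stayed lowest for miR-142-5p, miR-150-5p, miR-223-3p, miR-451a, miR-144-3p, miR-144-5p, miR-137-3p, miR-9-3p and miR-338-3p. MiR-486-5p, the erythroid miRNA with the most reads, was at -0.35 in group 1 (SE 0.01), the direction opposite to the 3 named, and at -0.19 in group 2 (SE 0.01). It was not called on RPM, and with TMM it was called lower in group 1 (-0.61). MiR-486-3p was not called in either pair, at 0.28 (SE 0.10) in group 1 and -0.002 (SE 0.11) in group 2. On RPM WT1 was its lowest library, with 15.7. The summed level of all 5, which miR-486-5p dominates, was 4017 to 4658 RPM in WT and 3242 to 4077 in AD mice. None of the 5 was at 0 in any library. The part of blood in the values of the immune miRNAs was not tested in either group.

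**Figure D4:**
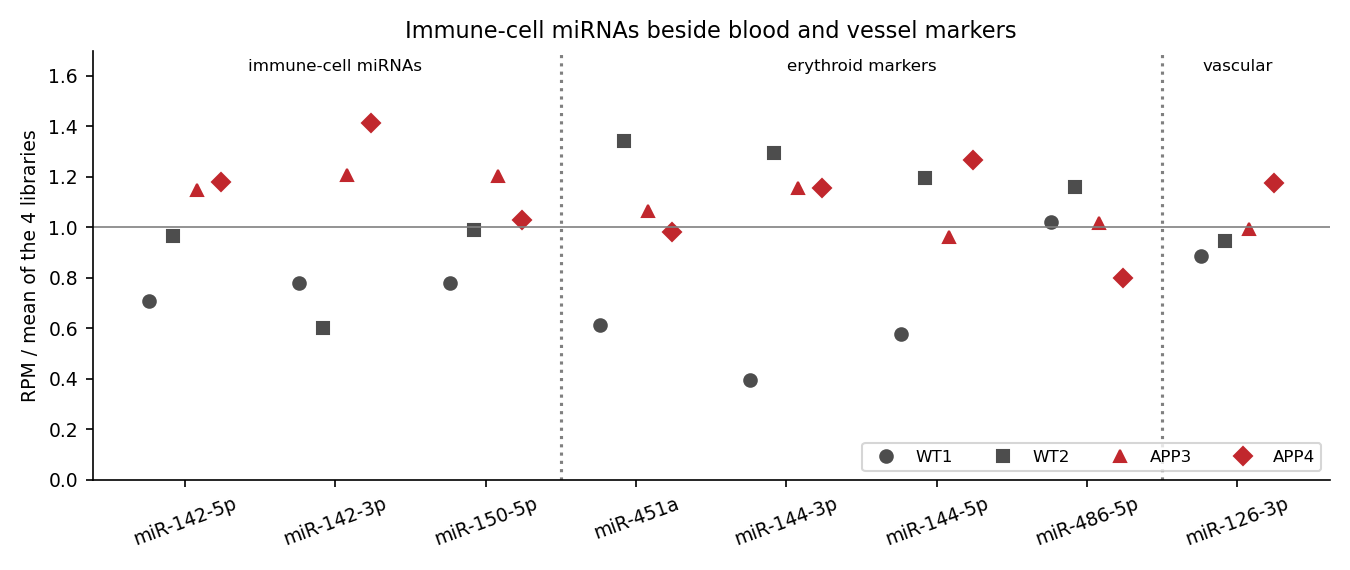
Level of miR-142, miR-150, 4 erythroid miRNAs and the endothelial miR-126-3p relative to the mean of the 4 libraries (y axis, ratio of RPM, linear from 0; circle WT1, square WT2, triangle APP3, diamond APP4; grey WT, red AD). WT1 is the lowest symbol for miR-142-5p, miR-150-5p, miR-451a, miR-144-3p and miR-144-5p, and also for miR-126-3p. WT2 is the lowest for miR-142-3p but the highest for miR-451a.

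On RPM, none of the 4 vascular miRNAs, the 4 neuronal miRNAs or the 3 measured oligodendrocyte miRNAs was called in either sibling pair, and none of them was at 0 in any library. With TMM, 1 was called in group 1, miR-143-3p of vascular smooth muscle, lower by -0.78 (-0.52 on RPM, SE 0.01). In group 2 it was at -0.23 (SE 0.01). MiR-143-3p and miR-145a-5p, 2 of the 4 vascular miRNAs, had both AD mice below both WT mice on RPM, as miR-146b-5p did. Of all miRNAs tested, 8.99% did so. For miR-145a-5p the gap was small, with 150.1 RPM in APP4 and 151.9 RPM in WT2. The endothelial miR-126-3p went the other way, as 27% of all miRNAs did, with 797 (WT1) and 849 RPM (WT2) against 893 (APP3) and 1058 RPM (APP4). For miR-126-5p the genotypes overlapped. The part of vascular cells in the values of miR-146b-5p was not tested. The summed levels of the lists in WT and AD mice were 31388 to 32445 and 24404 to 30007 RPM (vascular, mostly miR-143-3p), 36231 to 49017 and 39937 to 43450 (neuronal, mostly miR-128-3p) and 1479 to 1847 and 1793 to 1818 (oligodendrocyte, mostly miR-338-3p). The neuronal miRNAs of the labelled tissue were thus abundant, with miR-128-3p at 28065 RPM in its lowest library, WT1.

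A further list held 9 miRNAs that respond to or restrain immune signals in some cells but are not specific to microglia: miR-9-5p, miR-124-3p, miR-125a-5p, miR-125b-5p, miR-132-3p, miR-147-3p, miR-181a-5p and both arms of miR-342. In group 1, 1 of the 9 was called, miR-342-5p higher by 0.66 (SE 0.20), where 11.6% of all miRNAs tested were called. With TMM none of the 9 was called (9.45% of all miRNAs were), with miR-342-5p at 0.41. In group 2, 4 of the 9 were called, against 6.81% of all miRNAs. All were lower in the AD mouse: miR-342-3p by -1.87 (SE 0.03), miR-342-5p by -1.65 (SE 0.16), miR-125b-5p by -0.62 (SE 0.01) and miR-125a-5p by -0.59 (SE 0.01). MiR-342-3p, which is also found in cells of the blood lineage, had 182 RPM in WT1, 186 RPM in APP3, 152 RPM in APP4 and 678 RPM in WT2, so WT2 was the one library that stood apart and the other three were close. Between the WT mice, 5 of the 9 were called, all higher in WT2, against 10.1% of all miRNAs. With TMM 3 of the 9 were called, where 40 of all 879 miRNAs were called higher and 37 lower. MiR-181a-5p, with the most reads of this list, was not called in either sibling pair, and edgeR called none of the 9 over the 4 mice. The median log2 fold change of the 9 was -0.07 in group 1 and -0.34 in group 2, and none of them was at 0 in any library.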

How the data were processed

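The authors extracted RNA from cortex (Trizol per the labels, miRNeasy per the study's methods), made TruSeq small RNA libraries, filtered reads with fastx_toolkit 0.0.13.2, matched them to miRBase 19 with Bowtie, counted them in CLC genomics workbench 5.5 and deposited counts of reads per mature miRNA without normalization. The labels name CASAVA 1.8 and build mm9, whereas the study's methods name GRCm38. Beside the counts, the authors deposited RPM relative to clean reads, headed TPM, which served only to recover the number of clean reads per library. No per-sample column was left out.

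Counts were scaled to the miRNA reads of each library, 19048747 to 26085776. Fisher's exact tests (scipy 1.17.1, two-sided, Benjamini-Hochberg over all miRNAs with at least 1 read) compared pairs of libraries, with 0.5 read added for fold changes. The limit of 1.5-fold was set on ratios of RPM without the added read. edgeR 4.0.16 (filterByExpr, TMM, quasi-likelihood test) compared the genotypes over 4 mice in R 4.3.3, and all 8 miRNAs passed its filter. DESeq2 1.42.0 was an alternative. Both main tests were tested on simulated data. Fisher's exact test recovered 127 of 192 changed miRNAs with 2 false calls, and edgeR 94 of 131 with 4. The changes put in were all 2-fold or more. Recovery of smaller changes, such as edgeR gave for each of the 8, was not tested. The simulation for edgeR used the same spread between mice for every miRNA. The simulation for Fisher's exact test held counting error only and no differences between mice. It therefore does not show how often mice of one genotype would be called apart. The study's methods give the sibling pairs, and deviations of siblings from their genotype means correlated with r = 0.23 over 252 miRNAs, so a fit with the pair as a block was made.

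The other alternatives were TMM, clean reads, values scaled to 1000000, a minimum of 10 RPM, Bonferroni, 2-fold, 5 reads added, no filter, no TMM, summed strands and each mouse left out. Mice that are no siblings, and TMM from all miRNAs, were chosen after seeing the data. The members and lists were chosen with earlier results of these data known. Named were all members, the other arms of their hairpins, the 2 miRNAs most alike each, and from each list those called in a pair where a member was called, up to 4, and the one with the most reads. The other arm of Mir146 was not analysed here. Hairpin positions are from GENCODE on GRCm38 and sequences from RefSeq on GRCm38.p6.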

Additional observations from a re-analysis of the deposited data

How the results depend on the processing

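Over 340 recomputed values of single miRNAs, 303 kept their direction and their side of the limits, 20 changed sign, 14 lost a call and 3 gained one. Part of this agreement was fixed in advance. Bonferroni, the 2-fold limit and the minimum of 10 RPM leave the log2 value as it was. In the fits over all mice no call of the 8 could be lost, since the main fit had none. In group 1, where 2 of the 8 were called, TMM gave 1 call, miR-146b-5p in place of both miR-142 arms. TMM from all miRNAs gave 1, miR-142-3p, as did WT2 in place of WT1. Values scaled to 1000000, a minimum of 10 RPM (which leaves miR-142-3p untested) and Bonferroni gave 1, miR-142-5p, and a limit of 2-fold gave 0. In group 2, also with 2 calls, scaled values, the minimum of 10 RPM and Bonferroni gave 1, miR-146b-5p, and a limit of 2-fold gave 1, miR-142-3p, whose ratio of RPM is 2.01 without the added read. For APP4 against WT1, miR-146a-5p was at -0.18 with TMM, -0.11 with TMM from all miRNAs and -0.25 as the summed miR-146, and miR-155-5p at -0.026 with TMM. Against WT2, miR-21a-5p was at 0.28 and miR-223-3p at -0.040, and for APP3 against WT1 miR-21a-5p was at -0.24. Between the WT mice, miR-155-5p was at 0.0010 with clean reads and miR-142-3p at 0.42 as the summed miR-142. Between the AD mice, with TMM, TMM from all miRNAs and clean reads, miR-155-5p was at -0.11, -0.092 and -0.052, and miR-142-5p at -0.091, -0.072 and -0.031. In edgeR without TMM, miR-146a-5p was at 0.0073 and miR-21a-5p at 0.012.

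With 1 mouse left out, the lone mouse being assumed to vary like the others, edgeR gave -0.86 to -0.49 for miR-146b-5p, 0.60 to 1.03 for miR-142-3p, 0.18 to 0.56 for miR-142-5p (lowest without WT1), 0.02 to 0.37 for miR-150-5p (lowest without APP3), -0.20 to -0.04 for miR-146a-5p, 0.07 to 0.21 for miR-155-5p, -0.30 to 0.094 for miR-21a-5p (highest without WT1) and -0.088 to 0.23 for miR-223-3p. None of the 8 was called in any of these fits, which called 3 of 653 miRNAs without WT1, 0 of 646 without WT2, 21 of 651 without APP3 and 5 of 644 without APP4. With the sibling pair as a block, 2 of all 623 miRNAs and none of the 8 were called, with -0.66 (SE 0.16, adjusted p 0.198) for miR-146b-5p and 0.79 (SE 0.27, adjusted p 0.593) for miR-142-3p. It changed no call of the 8. The cause of these shifts was not tested, except that TMM moves all values of a pair together. Depth limits miR-142-3p, miR-155-5p and miR-223-3p, whose 32 to 130 reads per library leave a counting SE of 0.18 to 0.31 in the sibling pairs.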
